A study of Mus musculus with 24 samples.

Results

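Nfe2l2 and 9 other genes of oxidative stress defence (Hmox1, Sod2, Nqo1, Gclm, Gclc, Txnrd1, Prdx1, Txnip and Slc7a11) were followed through the response of macrophages and B cells to Kdo2 lipid A (KLA), a purified lipopolysaccharide core that activates Toll-like receptor 4. The genes were taken by name, and every probe that the array assigned to one of these names was used. This gave 10 genes of the 21597 gene symbols on the array, with 17 probes, all of which were tested. RNA was profiled on 12 Agilent 2-colour arrays, each of which carried 2 biological replicates of 1 condition, labelled with Cy5 and with Cy3, so that n = 2 in each of the 12 conditions. The cells were elicited peritoneal macrophages (EPM), collected after injection of thioglycollate broth and purified by adherence, bone marrow-derived macrophages (BMDM), grown from marrow with L-cell medium as the source of M-CSF, and resting splenic B cells, purified by depletion of CD43+ and CD11b+ cells. All came from C57BL/6 mice. KLA was given for 1 h or 12 h. The control for 12 h was DMSO in each cell type. The early control, against which 1 h of KLA was set, was untreated in EPM and B cells and 1 h of DMSO in BMDM.

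Nfe2l2 encodes Nrf2, the transcription factor of the oxidative stress response. In unstressed cells Nrf2 is bound by Keap1 and degraded, and electrophiles or oxidants release it, so that it enters the nucleus, pairs with a small Maf protein and binds antioxidant response elements in its target genes. Slc7a11, Gclc, Gclm, Txnrd1, Prdx1, Hmox1 and Nqo1 are among its known targets. Sod2 is the superoxide dismutase of mitochondria and is known as a gene that inflammatory signals induce in macrophages, and Txnip is an alpha-arrestin that binds thioredoxin and restrains glucose uptake. The level of the Nfe2l2 transcript is not a measure of Nrf2 activity, which is set largely by protein stability.

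Of the probes on the array, 57.5% to 65.0% were well above background in any channel. Both replicates of a condition shared an array, and all 4 arrays of a cell type shared a slide. The spread between replicates therefore leaves out differences between arrays, and the cell type cannot be told apart from its slide. Normalization of the dyes within an array also took the part of the replicate difference that followed intensity out of this spread. The treatment was visible in macrophages, where Tnf, Nfkbia, Cxcl2 and Il1b all rose at both times, Il1b by 7.71 in EPM and 5.83 in BMDM on the log2 scale at 1 h. In B cells 0 of these 4 genes passed the threshold at 1 h (Nfkbia at 0.33, adjusted p = 0.0758, came closest) and 1 of 4 (Tnf, 0.43) did at 12 h. For the B cells labelled KLA 1 h and control 12 h, the authors' own table of values carried the columns of the other condition, with correlations of 0.978 or more to the exchanged channels and of -0.742 or less to their own. Labels are those of the scanner files, and the counts of the 10 genes in B cells are given with both labellings. Of the defining markers, the B cell markers Cd79a, Cd79b, Ms4a1 and Pax5 were bright in B cells, and the macrophage markers Csf1r (13.19 to 15.22) and Itgam were bright in EPM and BMDM. In B cells Itgam was well above background in 0 of 8 channels, but Emr1 (7.41 to 10.92), Cd68, Cd14 and Lyzs were so in 8 of 8 and Csf1r in 7 of 8, so that macrophage transcripts were not absent there.

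Levels are normalized log2 intensities, on which a difference of 1 is a doubling, and levels of different probes were not compared with each other. A gene is called higher or lower where the adjusted p of the limma fit over all 17347 genes tested is under 0.05, and ± marks the standard error of a change. Of the 10 genes, 9 were well above background in all 24 channels. Slc7a11 was so in all 16 macrophage channels and in none of the 8 B cell channels, where its level is only a bound. In bulk RNA a change in the number of cells of a kind and a change of RNA per cell cannot be told apart.

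**Figure D1:**
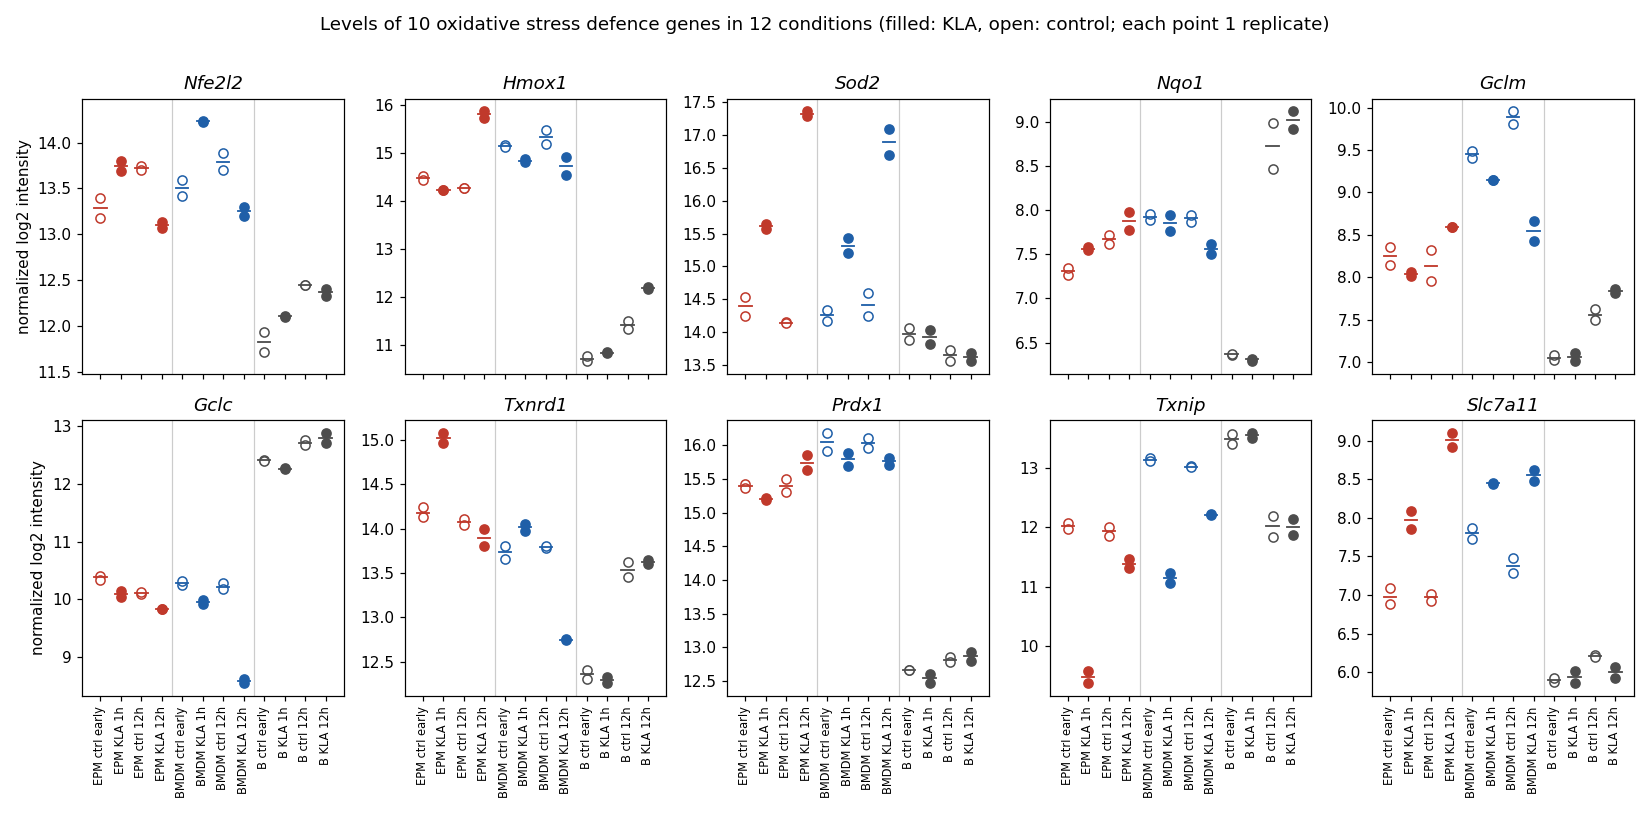
Normalized log2 intensity (vertical axis, 1 scale per gene) of each gene's main probe in the 12 conditions (horizontal axis). Each point is 1 of 2 replicates, lines are means, filled points are KLA and open points are controls. Sod2 and Slc7a11 were highest with 12 h of KLA in EPM (17.32 and 9.01), Txnip was lowest with 1 h of KLA in EPM (9.49), and Gclc was lowest with 12 h of KLA in BMDM (8.59).

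Promoter sequence, from 250 bases before to 50 bases after the start of transcription, was taken from RefSeq (GRCm38.p6, a later build than the mm8 of the probe positions) for 8 of the 10 genes, in 10 promoters. Hmox1 and Gclc had none in the table. The core of the antioxidant response element, TGACNNNGC on either strand, was present in 4 of these 10 promoters, and in 12.4% of the 32851 promoters of the same length in the genome. The 4 are shown because they belong to genes described together below, with the match in capitals.

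Nfe2l2 promoter, chr2:75704614-75704913, minus strand: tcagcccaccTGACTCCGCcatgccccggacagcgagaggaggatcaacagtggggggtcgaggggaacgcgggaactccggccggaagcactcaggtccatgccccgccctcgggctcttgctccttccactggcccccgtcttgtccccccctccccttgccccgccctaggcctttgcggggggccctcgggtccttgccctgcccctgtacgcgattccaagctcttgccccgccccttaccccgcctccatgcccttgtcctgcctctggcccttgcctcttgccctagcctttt

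Gclm promoter, chr3:122245307-122245606, plus strand: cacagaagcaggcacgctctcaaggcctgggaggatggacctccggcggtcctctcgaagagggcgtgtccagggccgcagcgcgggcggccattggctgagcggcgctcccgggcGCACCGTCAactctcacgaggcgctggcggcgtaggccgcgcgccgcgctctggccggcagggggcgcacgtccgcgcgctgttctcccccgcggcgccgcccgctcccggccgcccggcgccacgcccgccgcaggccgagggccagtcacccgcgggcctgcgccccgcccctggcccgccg

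Txnrd1 promoter, chr10:82858956-82859255, plus strand: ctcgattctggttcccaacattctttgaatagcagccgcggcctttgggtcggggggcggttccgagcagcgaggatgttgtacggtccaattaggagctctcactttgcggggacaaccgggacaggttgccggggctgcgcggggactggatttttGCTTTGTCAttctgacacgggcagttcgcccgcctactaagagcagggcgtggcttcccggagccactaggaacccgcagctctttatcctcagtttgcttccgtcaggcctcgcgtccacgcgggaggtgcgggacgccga

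Prdx1 promoter, chr4:116685349-116685648, plus strand: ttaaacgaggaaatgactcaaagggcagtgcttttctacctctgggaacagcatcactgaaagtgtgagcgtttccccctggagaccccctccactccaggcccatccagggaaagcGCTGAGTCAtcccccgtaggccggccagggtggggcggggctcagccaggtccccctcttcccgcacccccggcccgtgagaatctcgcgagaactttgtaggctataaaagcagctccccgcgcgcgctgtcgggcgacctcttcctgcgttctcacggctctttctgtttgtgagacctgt

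In Nfe2l2 the match began 240 bases before the start site and lay on the gene's own strand. In Gclm (134 bases before the start), Txnrd1 (92 bases before the start, in 1 of its 3 promoters) and Prdx1 (133 bases before the start) it lay on the opposite strand, so that its reverse complement stands in capitals. The match of Prdx1 overlaps a TGANTCA site, the AP-1 motif, which 7.81% of all promoters hold. The kappa-B motif bound by NF-kappaB was found in the promoters of Sod2 and Prdx1, and in 4.51% of all promoters. The Sod2 promoter is shown with that match in capitals, since Sod2 had the largest increase of the 10 genes.

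Sod2 promoter, chr17:13007589-13007888, plus strand: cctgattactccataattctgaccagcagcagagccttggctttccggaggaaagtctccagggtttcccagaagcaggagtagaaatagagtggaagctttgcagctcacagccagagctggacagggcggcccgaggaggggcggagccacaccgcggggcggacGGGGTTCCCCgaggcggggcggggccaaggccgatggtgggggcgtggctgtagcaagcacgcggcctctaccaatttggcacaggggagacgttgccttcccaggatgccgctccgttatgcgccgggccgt

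The E-box CACGTG was in none of the 10 promoters and in 7.15% of all promoters. These matches are letters in a window of 300 bases, and binding was not measured here.

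KLA moved most of the 10 genes in macrophages, in both directions. In EPM at 1 h, Nfe2l2, Sod2, Txnrd1 and Slc7a11 rose and Gclc and Txnip fell, which is 4 higher and 2 lower of 10, against 9.39% higher and 19.7% lower of all genes tested. In BMDM at 1 h the same 4 genes rose and Hmox1, Gclm, Gclc and Txnip fell, against 11.0% higher and 17.6% lower of all genes. At 12 h the cell types parted. EPM had 5 genes higher (Hmox1, Sod2, Gclm, Prdx1 and Slc7a11) and 3 lower (Nfe2l2, Gclc and Txnip), against 19.6% and 34.3% of all genes. BMDM had 2 higher (Sod2 and Slc7a11) and 8 lower, that is, every other gene of the 10, against 28.6% and 36.3% of all genes. The median change of the 10 genes at 12 h was 0.28 in EPM and -0.58 in BMDM, beside medians of -0.06 and -0.03 over all genes. Without normalization between arrays the median over all genes in BMDM at 12 h was -0.14, and with the scanner's processed signal that in EPM at 12 h was -0.11. In B cells 0 of 10 genes passed the threshold at 1 h (2 of 10 had an unadjusted limma p under 0.05), where 2.72% of all genes were higher and 2.45% lower, and 1 (Hmox1, higher) passed it at 12 h, where 2.81% were higher and 2.48% lower. With the 2 control arrays of a cell type taken as replicates and each array as 1 sample, a KLA condition is 1 array. The calls above were therefore not tested against the spread between arrays, and no call is drawn from that fit. Its ± rests on the gap between early and 12 h controls, pooled over EPM, BMDM and B cells. That fit sets KLA against both controls of a cell type. At 1 h it gave 0.24 ± 0.32 in EPM and 0.59 ± 0.32 in BMDM for Nfe2l2, and -2.49 ± 0.57 and -1.93 ± 0.57 for Txnip. At 12 h it gave 3.05 ± 0.19 and 2.56 ± 0.19 for Sod2, and 1.43 ± 0.31 and -0.52 ± 0.31 for Hmox1.

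**Figure D2:**
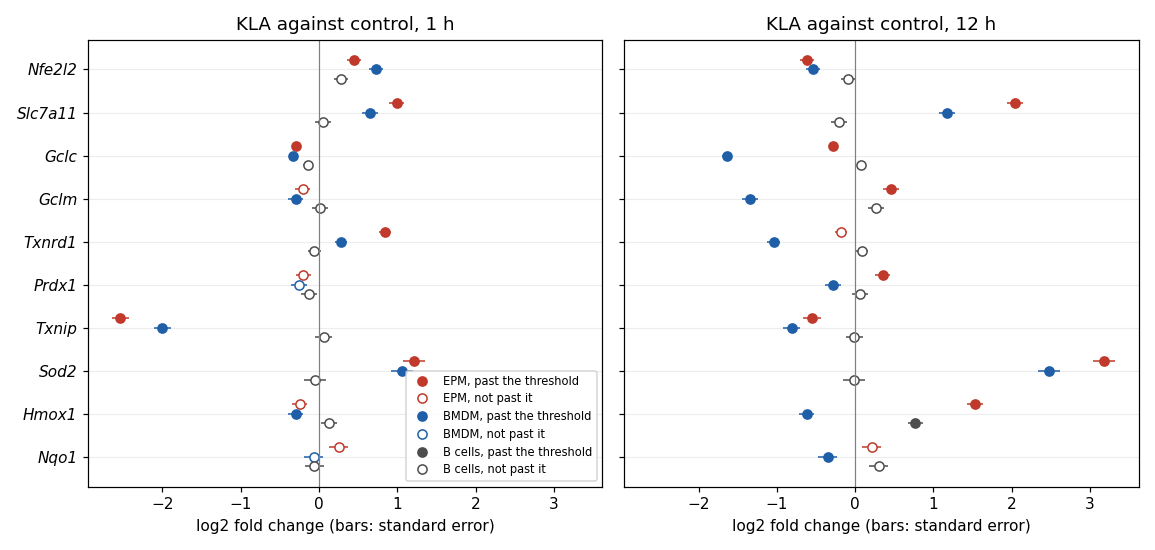
Log2 fold change with KLA against the control of the same time (horizontal axis; bars are standard errors) for each gene's main probe in EPM, BMDM and B cells, at 1 h and 12 h. Filled points passed the threshold. At 1 h Txnrd1 (0.84 in EPM and 0.28 in BMDM) and Txnip (-2.54 and -2.0) differed between EPM and BMDM, and at 12 h the BMDM points of Hmox1 (-0.62), Gclm (-1.34), Gclc (-1.64) and Txnrd1 (-1.04) lie to the left of the EPM points (1.53, 0.46, -0.28 and -0.18).

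Nfe2l2 itself rose early and fell late in both kinds of macrophage. Its main probe, A_51_P411271 (mm8 chr2:75476553-75476612, minus strand), read 13.18 and 13.40 in untreated EPM and 13.80 and 13.69 after 1 h of KLA, and the groups did not overlap. In BMDM it read 13.42 and 13.59 in the early control and 14.24 and 14.23 after 1 h. The increases were 0.45 ± 0.09 (1.37-fold, adjusted p = 0.000487) and 0.73 ± 0.09 (1.66-fold, adjusted p = 2.59e-06). At 12 h the controls read 13.74 and 13.70 in EPM and 13.89 and 13.70 in BMDM, and the KLA samples 13.07 and 13.13, and 13.30 and 13.20. Both KLA groups lay below their controls, by 0.62 ± 0.09 in EPM and 0.54 ± 0.09 in BMDM on the log2 scale (adjusted p = 5.5e-06 and 1.7e-05). The falls were smaller in the authors' values (-0.36 in EPM and -0.23 in BMDM), and that in EPM was -0.29 without normalization between arrays. The change from 1 h to 12 h was tested as a difference between the KLA effects and came to -1.07 ± 0.12 in EPM and -1.28 ± 0.12 in BMDM.

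The 3 other probes of Nfe2l2 did not all follow. A_52_P396436, which lies close to the main probe (chr2:75476699-75476758), changed by 0.08 at 1 h in EPM (adjusted p = 0.621) and by 0.31 in BMDM (adjusted p = 0.0321), and by -0.35 and -0.19 at 12 h, of which the first passed. The other 2 probes were designed to cDNA clones and lie at higher coordinates, towards the 5′ end of the gene. A_52_P523835 (chr2:75492729-75492788) rose by 0.46 in EPM and 0.42 in BMDM at 1 h, and at 12 h read 0.17 higher in EPM (adjusted p = 0.067) and fell by 0.46 in BMDM. A_52_P1107697 (chr2:75501533-75501592) rose by 1.10 ± 0.19 in BMDM at 1 h and differed by 0.17 in EPM (adjusted p = 0.597), and the 2 changes differed by -0.93 ± 0.28 (adjusted p = 0.039 over all probes). The main probe gave no difference between EPM and BMDM at either time (-0.28, adjusted p = 0.177, at 1 h and -0.07, adjusted p = 0.647, at 12 h), while A_52_P523835 gave one at 12 h (0.63 ± 0.11, adjusted p = 9.09e-05). With the mean of all 4 probes, the fall in EPM at 12 h was 0.20 and missed the threshold (adjusted p = 0.0782).

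Slc7a11, the subunit of the cystine and glutamate exchanger that supplies cysteine for glutathione, rose in both macrophages at both times and on every probe. The main probe, A_52_P368057 (chr3:50461973-50462032), read 7.09 and 6.88 in untreated EPM, 8.09 and 7.86 after 1 h of KLA, 7.01 and 6.92 in the 12 h control and 9.10 and 8.92 after 12 h. In BMDM the same 4 conditions read 7.87 and 7.73, 8.45 and 8.44, 7.48 and 7.28, and 8.62 and 8.48. KLA samples lay above their controls in all 4 comparisons. The increases were 1.99-fold and 4.12-fold in EPM and 1.57-fold and 2.25-fold in BMDM at 1 h and 12 h, with an adjusted p of 4.64e-05 or less. The 12 h increase was larger in EPM by 0.87 ± 0.14 on the log2 scale (adjusted p = 3.86e-05), and at 1 h the difference of 0.34 did not pass (adjusted p = 0.143, and 0.0258 with the dye as a replicate block). The probes A_51_P129502 and A_52_P663446 rose in the same 4 comparisons, by 0.50 to 1.90 on the log2 scale.

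The last probe of Slc7a11, designed to a cDNA clone and lying towards the 5′ end (A_52_P298824, chr3:50539059-50539118), read lower after 12 h of KLA than after 1 h. It was not well above background in either macrophage at 12 h without KLA, nor in untreated EPM, and in early BMDM controls in 1 of 2 channels. After 1 h of KLA it read 7.34 and 7.38 in EPM and 7.53 and 7.67 in BMDM, and after 12 h 6.93 and 6.69, and 6.64 and 6.63. It was thus at least 2.44-fold higher at 1 h and at least 1.69-fold higher at 12 h in EPM, and at least 1.40-fold higher at 12 h in BMDM. Because its controls lay at background, the size of its increase was not compared between the times. On the main probe the increase was larger at 12 h than at 1 h, by 1.05 ± 0.14 in EPM and 0.52 ± 0.14 in BMDM. With the mean of the 4 probes these differences were 0.62 and 0.13, of which the second did not pass (adjusted p = 0.193), and without normalization between arrays that in BMDM was 0.28 (adjusted p = 0.091).

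Gclc and Gclm encode the catalytic and the modifier subunit of glutamate-cysteine ligase, the rate-limiting enzyme of glutathione synthesis. In contrast to the transporter they were lower in BMDM after 12 h of KLA. Gclc (A_51_P365019, chr9:77579173-77579232) read 10.28 and 10.17 in the BMDM control and 8.62 and 8.55 with KLA, a fall of 1.64 ± 0.06 on the log2 scale or 3.11-fold (adjusted p = 6.14e-14). In EPM at 12 h it read 10.10 and 10.13 without and 9.84 and 9.83 with KLA, a fall of 0.28 ± 0.06 (adjusted p = 0.000975). The groups did not overlap in either cell type, and the fall in BMDM was the larger by 1.36 ± 0.09 (adjusted p = 6.79e-10). Already at 1 h Gclc had fallen by 0.29 ± 0.06 in EPM and 0.33 ± 0.06 in BMDM. Without normalization between arrays the 12 h fall in EPM was 0.15 and missed the threshold (adjusted p = 0.0518).

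Gclm (A_51_P320089, chr3:122251278-122253913, a probe whose ends lie in this span) moved in opposite directions in the 2 macrophages at 12 h. It read 7.95 and 8.32 in the EPM control and 8.59 and 8.59 with KLA, an increase of 0.46 ± 0.10 (1.37-fold, adjusted p = 0.00083), or 0.27 without control replicate 1 (adjusted p = 0.0327). In BMDM it read 9.96 and 9.81 in the control and 8.66 and 8.43 with KLA, a fall of 1.34 ± 0.10 (2.53-fold, adjusted p = 1.09e-09). The KLA samples of the cell types ended at similar levels, from controls that were apart. The difference between the changes was 1.80 ± 0.14 (adjusted p = 9.21e-09). At 1 h Gclm was lower in BMDM by 0.30 ± 0.10 (adjusted p = 0.0327), a call that was lost when any 1 of the 4 replicates was left out (changes of -0.34 to -0.26, adjusted p up to 0.153), and in EPM it read 0.21 lower without passing (adjusted p = 0.128).

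Txnrd1, the cytosolic thioredoxin reductase, rose early and then separated the macrophages. Its probe (A_51_P320614, chr10:82327284-82327343) read 14.24 and 14.13 in untreated EPM and 15.08 and 14.97 after 1 h of KLA, an increase of 0.84 ± 0.08 (1.79-fold, adjusted p = 9.39e-08). In BMDM it read 13.66 and 13.81, and 13.98 and 14.05, an increase of 0.28 ± 0.08 (adjusted p = 0.00964) that missed the threshold without early control replicate 1 (0.21, adjusted p = 0.13) or without KLA replicate 2 (0.25, adjusted p = 0.0743). The early increase was larger in EPM by 0.56 ± 0.11 (adjusted p = 0.0017). At 12 h Txnrd1 read 13.78 and 13.81 in the BMDM control and 12.76 and 12.75 with KLA, a fall of 1.04 ± 0.08 (2.06-fold, adjusted p = 6.97e-10). In EPM it read 14.11 and 14.04 without and 13.80 and 14 with KLA, which was 0.18 lower and did not pass (adjusted p = 0.0539). That value passed with the dye as a replicate block (adjusted p = 0.0336) and, at -0.28, without KLA replicate 2 (adjusted p = 0.0119).

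Prdx1, a peroxiredoxin that removes hydrogen peroxide and is recycled by thioredoxin, changed little. Its probe (A_51_P353183, chr4:116190905-116191675) read 15.49 and 15.30 in the EPM 12 h control and 15.86 and 15.63 with KLA, an increase of 0.35 ± 0.10 (adjusted p = 0.00471). In BMDM it read 15.96 and 16.10, and 15.70 and 15.81, a fall of 0.28 ± 0.10 (adjusted p = 0.0188). Each of these calls rested on single replicates. The increase in EPM did not pass without control replicate 2 (0.26, adjusted p = 0.0773) or KLA replicate 1 (0.24, adjusted p = 0.0915), and the fall in BMDM did not pass without control replicate 2 (-0.20, adjusted p = 0.152) or KLA replicate 1 (-0.22, adjusted p = 0.124). In the authors' own values the BMDM change was 0.14 (adjusted p = 0.183), and without normalization between arrays -0.05 (adjusted p = 0.705), where that in EPM was 0.67. The difference between the cell types, 0.63 ± 0.14 (adjusted p = 0.00101), passed in each of these cases. At 1 h Prdx1 read 0.20 lower in EPM and 0.26 lower in BMDM (adjusted p = 0.136 and 0.0544), and both passed with the dye as a replicate block (adjusted p = 0.0408 and 0.00991).

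Txnip, which inhibits thioredoxin, had the largest early fall of the 10 genes in both macrophages. The main probe (A_51_P438805, chr3:96646629-96646688) read 12.07 and 11.98 in untreated EPM and 9.38 and 9.59 after 1 h of KLA, a fall of 2.54 ± 0.11 or 5.80-fold (adjusted p = 2.97e-12). In BMDM it read 13.17 and 13.12 in the early control and 11.23 and 11.06 with KLA, a fall of 2.0 ± 0.11 or 3.99-fold (adjusted p = 9.48e-11). By 12 h the gap to the controls had narrowed in both. EPM read 12.01 and 11.86 without and 11.46 and 11.31 with KLA, and BMDM 13.03 and 13.01, and 12.22 and 12.21, with falls of 0.55 ± 0.11 and 0.81 ± 0.11. The change of the KLA effect from 1 h to 12 h was 1.99 ± 0.16 in EPM and 1.19 ± 0.16 in BMDM. The second probe (A_52_P420792, chr3:96644567-96644741) fell in the same 4 comparisons by smaller amounts, from 0.22 in EPM at 12 h to 1.28 in BMDM at 1 h. The early fall on the main probe was larger in EPM than in BMDM by 0.54 ± 0.16 (adjusted p = 0.0361), but no difference passed on the second probe (0.16, adjusted p = 0.5). It was also lost when any of 6 of the 8 replicates was left out, namely either early control of EPM (-0.49 and -0.59), either early control of BMDM (-0.56 and -0.52) or KLA replicate 1 of EPM (-0.44) or BMDM (-0.45).

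Sod2, which turns superoxide into hydrogen peroxide in the mitochondrial matrix, had the largest increase of the 10 genes. Its probe (A_51_P172573, chr17:12858140-12858199) read 14.54 and 14.25 in untreated EPM, 15.57 and 15.64 after 1 h of KLA, 14.15 and 14.14 in the 12 h control and 17.36 and 17.28 after 12 h. In BMDM these conditions read 14.34 and 14.17, 15.43 and 15.20, 14.59 and 14.24, and 17.09 and 16.69. KLA samples lay above their controls in all 4 comparisons. The increases in EPM were 2.31-fold at 1 h and 9.03-fold at 12 h (3.18 ± 0.14 on the log2 scale, adjusted p = 4.45e-13), and in BMDM 2.08-fold and 5.58-fold (2.48 ± 0.14, adjusted p = 1.15e-11). The 12 h increase was larger in EPM by 0.70 ± 0.19 (adjusted p = 0.0063). In the authors' own values that difference was 0.45 and did not pass (adjusted p = 0.0563).

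Hmox1, haem oxygenase 1, which degrades haem and is among the genes that Nrf2 induces and Bach1 represses, moved in opposite directions at 12 h. Its probe (A_51_P263965, chr8:77996380-77996439) read 14.27 and 14.27 in the EPM 12 h control and 15.87 and 15.73 with KLA, an increase of 1.53 ± 0.10 or 2.89-fold (adjusted p = 2.32e-10). In BMDM it read 15.19 and 15.48 in the control and 14.53 and 14.91 with KLA, a fall of 0.62 ± 0.10 or 1.53-fold (adjusted p = 2.64e-05). The difference of 2.15 ± 0.14 between the macrophages (adjusted p = 7.74e-10) exceeded that of Gclm, but not without normalization between arrays (2.01 against 2.18), with the scanner's processed signal or in the authors' values (1.74 against 1.84). The call in BMDM depended on the values used, since the authors' own table gave -0.07 (adjusted p = 0.592) there and values without normalization between arrays -0.30 (adjusted p = 0.0126). At 1 h the changes were -0.25 in EPM (adjusted p = 0.0745, and 0.0336 with the dye as a replicate block) and -0.30 ± 0.10 in BMDM (adjusted p = 0.0332). The latter call was lost when any of the 4 replicates was left out (changes of -0.33 to -0.26, adjusted p up to 0.153), and the change was -0.12 without normalization between arrays.

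Nqo1, the quinone reductase used as a classical marker of Nrf2 activity, was dim in macrophages and changed little. Its probe (A_51_P424338, chr8:110277669-110277728) read 7.27 to 7.98 over the 8 EPM channels and 7.5 to 7.95 over the 8 BMDM channels. In EPM its changes of 0.25 at 1 h and 0.21 at 12 h did not pass (adjusted p = 0.116 and 0.131), and passed with the dye as a replicate block (adjusted p = 0.0324 and 0.0499). In BMDM it was 0.07 lower at 1 h (adjusted p = 0.726) and fell at 12 h by 0.35 ± 0.12 (adjusted p = 0.0137), from 7.87 and 7.94 to 7.62 and 7.5. That fall missed the threshold without control replicate 2 (-0.31, adjusted p = 0.0755) or without KLA replicate 2 (-0.29, adjusted p = 0.095). The 12 h changes of EPM and BMDM differed by 0.56 ± 0.16 (adjusted p = 0.00879).

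**Figure D3:**
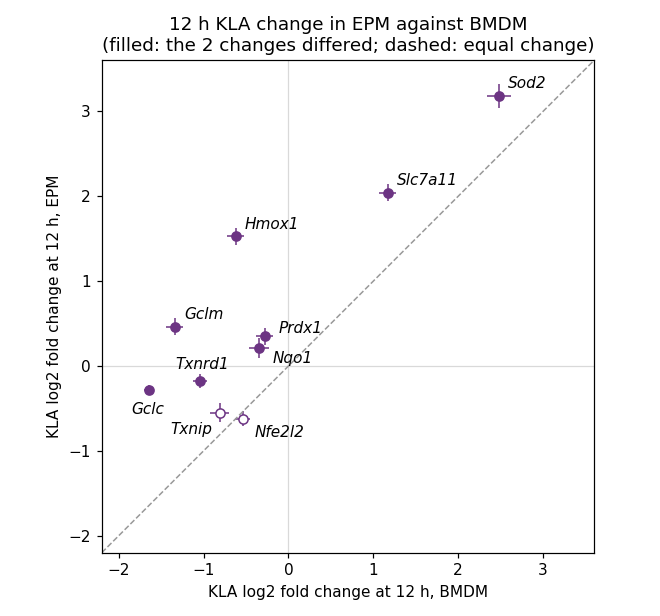
KLA log2 fold change at 12 h in EPM (vertical axis) against BMDM (horizontal axis) for the 10 genes, with standard errors as bars. The dashed line marks equal change, and filled points are genes whose 2 changes differed. All 8 filled genes lie above the line, with Hmox1 (1.53 against -0.62) and Gclm (0.46 against -1.34) in opposite directions, and Nfe2l2 and Txnip (open) lie near it.

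The difference between the macrophages was tested for all 10 genes together with the rest of the array. At 1 h 2 of 10 changes differed (Txnrd1 and Txnip), where 9.56% of all genes did. At 12 h 8 of 10 differed, each with the higher value in EPM, where 47.8% of all genes differed in either direction. The exceptions at 12 h were Nfe2l2 and Txnip, at -0.07 ± 0.12 and 0.26 ± 0.16 (adjusted p = 0.647 and 0.194). The median difference was 0.78 for the 10 genes and -0.03 over all genes. Of the 69 related genes described below, 24 had a higher 12 h change in EPM and 11 a lower one, with a median of -0.02. All 4 TLR4 response genes had a higher one, with a median of 1.89. The 4 genes whose promoters hold the antioxidant response element core did not behave alike at 12 h, since Gclm, Txnrd1 and Prdx1 differed between the macrophages and Nfe2l2 did not. The 12 h change in EPM also differed from the 1 h change for 8 of 10 genes, 6 upwards and 2 downwards (Nfe2l2 and Txnrd1), where 43.7% of all genes differed. In BMDM this held for 7 of 10, 3 upwards (Sod2, Txnip and Slc7a11) and 4 downwards (Nfe2l2, Gclm, Gclc and Txnrd1), where 54.4% of all genes differed. With each array as 1 sample, a KLA condition is 1 array, so the differences between EPM and BMDM had no replicate arrays. In that fit the 12 h differences were 1.95 ± 0.43 for Hmox1, 1.52 ± 0.39 for Gclm, 1.26 ± 0.26 for Gclc and 1.07 ± 0.32 for Slc7a11. They were 0.78 ± 0.66 for Txnrd1, 0.74 ± 1.3 for Nqo1, 0.63 ± 0.16 for Prdx1 and 0.49 ± 0.28 for Sod2. At 1 h they were 0.64 ± 0.66 for Txnrd1 and -0.56 ± 0.81 for Txnip. The ± of that fit rests on the gap between early and 12 h controls, pooled over EPM, BMDM and B cells. For Nqo1, Txnrd1 and Txnip this gap was widest in B cells under the scanner labels (2.36, 1.18 and -1.47). In macrophages it was at most 0.36 in size for these genes. Since the cell types lay on separate slides and the early control was untreated in EPM and DMSO in BMDM, a slide or vehicle effect and the cell type cannot be told apart in the 1 h difference.

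The early controls of the macrophages differed too. The cell type cannot be told apart here from the slide and the vehicle (untreated in EPM, 1 h of DMSO in BMDM). In early controls 7 of 10 genes were lower in EPM than in BMDM and 1, Txnrd1, was higher, where 29.3% of all genes were lower and 28.5% higher. The largest of these differences were those of Gclm (-1.19 ± 0.10, with 8.36 and 8.15 in EPM and 9.41 and 9.49 in BMDM) and Txnip (-1.12 ± 0.11). Slc7a11, Hmox1, Prdx1 and Nqo1 were lower by 0.81, 0.67, 0.65 and 0.61. For Nfe2l2 the difference of -0.21 ± 0.09 was lost without EPM replicate 1 (-0.11, adjusted p = 0.393) or BMDM replicate 2 (-0.13, adjusted p = 0.299), and with the mean of its 4 probes it turned to 0.26 (adjusted p = 0.0264), since A_52_P1107697 and A_52_P523835 were higher in EPM by 0.56 and 0.87. The probe A_51_P129502 of Slc7a11 gave no call (0.09, adjusted p = 0.531), and with the mean of its 4 probes the difference was -0.28. The fit with each array as 1 sample held the early and 12 h controls of a cell type together. For controls of EPM minus BMDM it gave -1.47 ± 0.23 for Gclm, -0.64 ± 0.09 for Prdx1 and 0.37 ± 0.38 for Txnrd1. Beside these levels, the summed intensity of the neutrophil markers Ngp, Camp, Mpo and Ela2 was 8.47 and 8.55 in early EPM controls and 10.06 and 10.10 in early BMDM controls on the log2 scale (Ngp and Ela2 were well above background in 0 of 8 EPM channels). In BMDM these sums were 10.34 and 10.58 after 1 h of KLA, and at 12 h 9.78 and 10 without and 10.20 and 10.26 with KLA, and 3 of the 4 markers had a lower KLA change in EPM than in BMDM at 1 h. Their part in the results was not tested. In BMDM at 12 h, where 8 of the genes fell with KLA, the summed B cell markers fell from 11.74 and 11.82 to 10.44 and 10.47. This sum was carried by Cd79b. Of the 5 B cell markers, 2 were called higher and 1 lower there, with a median change of 0.08. Pax5 was well above background in 0 of 8 BMDM channels. The part of these markers was not tested either.

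Few of the 10 genes differed between the early and the 12 h control in macrophages. In EPM, Nfe2l2 (0.43 ± 0.09) and Nqo1 (0.36 ± 0.12) were higher at 12 h and Gclc was lower (-0.26 ± 0.06), where 10.8% of all genes were higher and 8.31% lower. The difference of Nqo1 did not pass when any 1 of its 4 replicates was left out, and that of Gclc missed the threshold without early control replicate 1 (-0.23, adjusted p = 0.0724). With the mean of its probes, Nfe2l2 read -0.17 (adjusted p = 0.236), as A_52_P523835 was lower at 12 h by 1.18 ± 0.07. In BMDM, Nfe2l2 (0.29) and Gclm (0.44) were higher and Slc7a11 lower (-0.42), where 13.2% of all genes were higher and 9.99% lower. None of these 3 calls passed with every replicate left out in turn, with adjusted p of up to 0.23, 0.0585 and 0.066.

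In B cells the 10 genes hardly responded to KLA under the scanner labels, but they differed widely between early and late samples. Hmox1 read 11.49 and 11.34 in the 12 h control and 12.20 and 12.17 with KLA, an increase of 0.77 ± 0.10 (1.70-fold, adjusted p = 4.43e-05). The other changes at 12 h lay between -0.21 (Slc7a11, not well above background in either group) and 0.30 (Nqo1), and those at 1 h between -0.14 and 0.28. Leaving out 1 replicate moved Nfe2l2 at 1 h to 0.39 (without early control replicate 2, adjusted p = 0.0311) and Nqo1 at 12 h to 0.55 (without control replicate 1, adjusted p = 0.00236), both past the threshold. With the dye as a replicate block Nfe2l2 at 1 h (0.28, adjusted p = 0.0211) and Nqo1 at 12 h (0.30, adjusted p = 0.0411) also passed, which gave 1 and 2 genes. Between the early and the 12 h control, 7 of 10 genes passed upwards, Slc7a11 among them with both groups at background, and 1 downwards, where 25.0% of all genes were higher and 22.4% lower. Nqo1 read 6.36 and 6.37 in untreated B cells and 8.98 and 8.47 after 12 h in DMSO, an increase of 2.36 ± 0.12 or 5.12-fold (adjusted p = 1.24e-11). Txnrd1 read 12.31 and 12.41, and 13.63 and 13.46, an increase of 1.18 ± 0.08. Txnip read 13.57 and 13.41, and 11.84 and 12.20, a fall of 1.47 ± 0.11. Hmox1, Nfe2l2, Gclm, Gclc and Slc7a11 were higher by 0.70, 0.62, 0.51, 0.31 and 0.31, the last with no channel well above background. Sod2 was 0.32 lower (adjusted p = 0.0607, and 0.00145 with the dye as a replicate block) and Prdx1 0.14 higher (adjusted p = 0.246). The Slc7a11 difference missed the threshold without replicate 1 of the early control (0.29, adjusted p = 0.0682) or of the 12 h control (0.31, adjusted p = 0.0552).

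With the 2 disputed labels exchanged, those differences became responses to KLA. At 1 h, 8 of 10 genes then changed, 7 upwards (Slc7a11 again at background), with Nqo1 at 2.36 and Txnip at -1.47. At 12 h it was again 8 of 10, with Nqo1 at 2.71 ± 0.12 (6.56-fold), Hmox1 at 1.34, Txnrd1 at 1.33 and Txnip at -1.54. Between the controls 0 of 10 differed (2 had an unadjusted limma p under 0.05). Under these labels 8218 of the 17347 genes tested were called at 1 h, 8526 at 12 h and 897 between the controls. Under the exchanged labels, 3 of the 4 TLR4 response genes were lower with KLA at 1 h (Tnf -1.06, Il1b -1.06 and Nfkbia -0.39) and at 12 h (-0.82, -1.03 and -0.52), and 0 of 4 were higher. Statements on KLA in B cells hold only under the label they name. The erythroid marker list, which includes Hbb-b1, Hba-a1 and Alas2, moved with the same split: its summed level was 13.28 to 13.70 in the B cell arrays labelled early control and KLA 1 h and 11.80 to 12.34 in those labelled 12 h. The macrophage marker sum moved the other way, from 9.91 to 9.95 up to 11.13 to 11.46, through Emr1, with Csf1r between 6.27 and 6.46 in all 8 channels. Of the 6 macrophage markers, 2 were called higher and 2 lower in the 12 h control than in the early one, with a median change of -0.05. The part of these markers in the differences was not tested.

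Other genes of the same pathways were taken from 8 lists that hold 72 genes, of which 69 were tested. In EPM 9 of 69 were higher and 25 lower at 1 h, and 19 higher and 35 lower at 12 h. In BMDM 8 were higher and 18 lower at 1 h, and 18 higher and 39 lower at 12 h. The median change at 12 h was -0.29 in EPM and -0.38 in BMDM. Of all genes, 9.39% were higher and 19.7% lower in EPM at 1 h, and 19.6% and 34.3% at 12 h. In BMDM these shares were 11.0% and 17.6% at 1 h, and 28.6% and 36.3% at 12 h. The counts of single lists below stand beside the same shares.

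**Figure D4:**
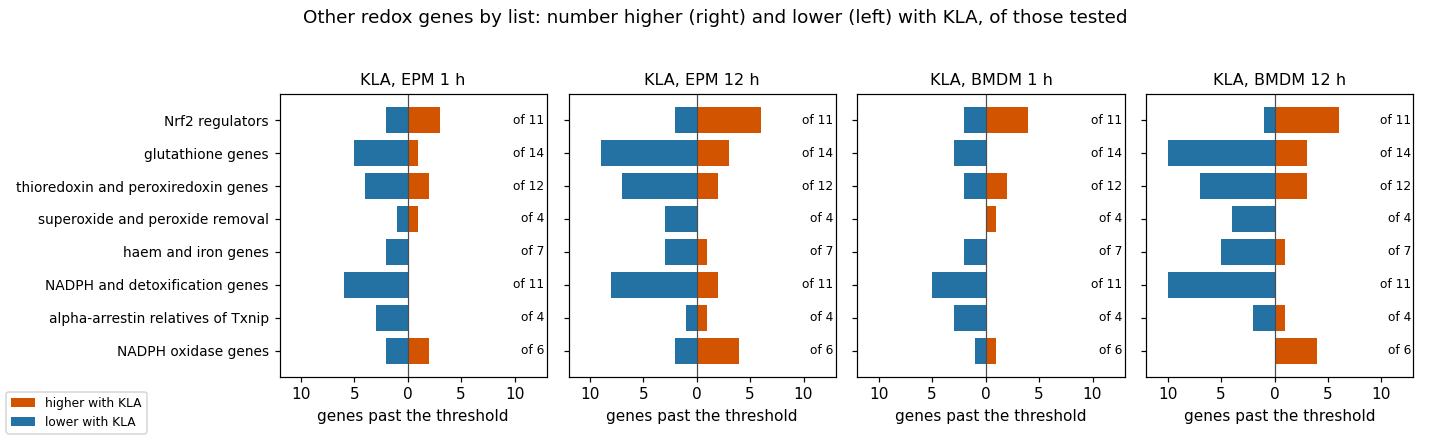
Number of genes per list that were higher (right, orange) or lower (left, blue) with KLA in EPM and BMDM at 1 h and 12 h, beside the number tested. At 12 h Nrf2 regulators and NADPH oxidase genes had more genes higher than lower in both macrophages (6 and 4 higher), and glutathione genes (9 and 10 lower) and NADPH and detoxification genes (8 and 10 lower) had more genes lower.

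Among 11 regulators of Nrf2, 6 were higher and 2 lower in EPM at 12 h, and 6 higher and 1 lower in BMDM. Maff, a small Maf partner of Nrf2, rose 11.2-fold in EPM and 11.6-fold in BMDM at 1 h, and 2.14-fold and 2.20-fold at 12 h. Sqstm1, the p62 adaptor that sequesters Keap1, rose by 0.73 and 0.53 at 1 h. Keap1, which marks Nrf2 for degradation, fell by 0.53 ± 0.08 in EPM and 0.41 ± 0.08 in BMDM at 1 h and rose by 0.89 and 0.90 at 12 h, opposite in time to the main probe of Nfe2l2. Mafk rose at 12 h, by 0.94 in EPM and 1.48 in BMDM. Bach1, which represses Hmox1 and other genes with antioxidant response elements, fell by 0.90 ± 0.08 in EPM at 12 h (8.59 against 9.49 in the control) and rose by 0.63 ± 0.08 in BMDM (9.99 against 9.35). These changes differed by -1.53 ± 0.12 (adjusted p = 4.7e-09), opposite in sign to the difference of Hmox1. A link between the 2 genes was not tested. The comparison of Bach1 between the macrophages was chosen after its values were seen. Bach2 fell in both at 12 h, by 0.84 and 0.30, and at 1 h in EPM by 0.30, and Nfe2l1 fell at 1 h in BMDM by 0.19.

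Of 14 glutathione genes tested, 9 were lower and 3 higher in EPM at 12 h, and 10 lower and 3 higher in BMDM. Slc3a2, the heavy chain that carries Slc7a11 to the membrane, rose by 0.86 ± 0.09 in EPM and 0.49 ± 0.09 in BMDM, and Glrx, a glutaredoxin, rose 5.18-fold and 2.80-fold. Gpx1, the main cytosolic glutathione peroxidase, fell 3.03-fold in EPM, Gsta3 fell 2.68-fold in BMDM, Mgst1 fell by 1.03 in EPM and Gpx4 by 0.97 in BMDM. At 1 h the calls were smaller: Abcc1 rose by 0.31 and Mgst1 and Gpx4 fell by 0.48 and 0.43 in EPM, and Gpx4 and Glrx each fell by 0.32 in BMDM. Among 12 thioredoxin and peroxiredoxin genes, 2 were higher and 7 lower in EPM at 12 h, and 3 higher and 7 lower in BMDM. Srxn1, the sulfiredoxin that repairs overoxidized peroxiredoxins and a known Nrf2 target, rose by 0.76 ± 0.06 in EPM at 1 h, read 0.06 higher in BMDM (adjusted p = 0.543), and fell at 12 h by 0.35 in EPM and 1.16 in BMDM. Prdx5 rose at 12 h by 1.49 and 1.67 and at 1 h in BMDM by 0.37, Prdx6 by 0.88 in EPM and Txn1 by 0.80 in BMDM. Sesn1, a stress-induced sestrin, fell 11.2-fold in EPM and 9.0-fold in BMDM at 12 h and by 0.77 in each at 1 h. Txnrd2, the mitochondrial reductase, rose at 1 h by 0.53 and 0.51 and fell by 0.55 in EPM at 12 h, and Prdx2 fell at 1 h by 0.34 and 0.28.

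Among the other genes of superoxide and peroxide removal, of 4 tested, 3 were lower in EPM and 4 in BMDM at 12 h and none was called higher. Sod1, the cytosolic dismutase, fell by 1.01 in EPM, catalase (Cat) fell by 1.71 in BMDM, and the metallothionein Mt1 fell by 1.48 and 1.93. At 1 h Mt2 rose by 0.98 in EPM and 0.47 in BMDM, and Sod1 fell by 0.26 in EPM. Among 7 haem and iron genes, Slc40a1, the iron exporter ferroportin, fell 10.7-fold in BMDM (9.18 against 12.60) and 2.04-fold in EPM (7.24 against 8.27) at 12 h. Hmox2, the constitutive haem oxygenase, fell by 0.46 and 0.39 at 1 h and rose by 0.36 and 0.59 at 12 h. Its 12 h change was lower in EPM by 0.24 ± 0.09 (adjusted p = 0.0327), with both macrophages in the same direction. The transferrin receptor Tfrc fell by 2.01 in BMDM at 12 h and by 0.28 at 1 h, biliverdin reductase Blvra fell by 1.04 in EPM at 12 h, and Slc40a1 fell by 0.31 in EPM at 1 h.

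NADPH, which both glutathione and thioredoxin reductase consume, is made largely by the pentose phosphate pathway. Of 11 NADPH and detoxification genes, 8 were lower and 2 higher in EPM and 10 lower in BMDM at 12 h. Taldo1 fell by 1.53 and 1.45, Tkt by 1.47 in BMDM and Idh1 by 1.60 in EPM. Osgin1, an oxidative stress-induced growth inhibitor, rose by 0.54 ± 0.18 in EPM and fell by 0.70 ± 0.18 in BMDM at 12 h, a difference of 1.25 ± 0.25 (adjusted p = 0.000475), while Mod1 (malic enzyme) rose by 0.25 in EPM. At 1 h Osgin1 fell by 0.67 and 1.07, Nqo2 by 0.37 in EPM and Pgd by 0.55 in BMDM. Of 4 alpha-arrestin relatives of Txnip, 3 fell with it in each macrophage at 1 h, where Arrdc3 fell by 0.79 and 1.15 and Arrdc2 by 0.93 and 0.49. At 12 h Arrdc4 rose by 1.23 and 0.73 and Arrdc3 fell by 0.91 and 0.34, with Arrdc1 lower by 0.34 in BMDM. Of 6 genes of the NADPH oxidase, the phagocyte source of superoxide, 4 were higher at 12 h in each macrophage, and 2 were lower in EPM and 0 in BMDM. Cybb, its catalytic subunit, rose by 1.49 ± 0.09 in EPM and 1.74 ± 0.09 in BMDM, Rac2 by 0.70 in EPM and Ncf1 by 0.90 in BMDM, whereas Cyba fell by 0.44 in EPM. At 1 h Ncf1 and Cybb rose by 0.37 and 0.36 and Cyba and Rac2 fell by 0.31 and 0.29 in EPM, and Cybb rose by 0.27 and Rac2 fell by 0.32 in BMDM.

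Across all 12 conditions each gene had its own order of levels. Gclc had its 4 highest means in B cells (12.26 to 12.79), and Nfe2l2, Hmox1, Sod2, Gclm, Prdx1 and Slc7a11 had their 4 lowest there, Slc7a11 at background. The range between the highest and the lowest condition was widest for Hmox1 (5.09, of 11 steps between neighbouring conditions 1 overlapped), Gclc (4.2, 3 overlapped) and Txnip (4.06, 4 overlapped), and smallest for Nfe2l2 (2.41, 3 overlapped). For Txnrd1 6 of 11 neighbouring steps overlapped. As these orders run across slides, they are given as a description. The genes whose condition means ran closest to each gene over the 12 conditions, which share libraries and slides, differed from gene to gene. For Sod2 they were Ifi205, Olfr291 and Edn1 (Pearson r = 0.988, 0.972 and 0.971), for Slc7a11 Kpna3, Ifih1 and Clec4e (0.987, 0.981 and 0.98), and for Hmox1 2810439F02Rik, 4632419I22Rik and Rab32 (0.98, 0.979 and 0.978). For Prdx1 they were Ms4a7, Clec4a3 and Ptpro, for Gclc 2310014G06Rik, Yeats4 and Josd3, for Gclm AI173486, Mad2l1 and Rhod, and for Nfe2l2 Atxn1, Mycn and Tpmt, with r from 0.96 to 0.996. The closest genes to Txnip (BC003267 and Ftsj2), Txnrd1 (Ehbp1, Dtx4 and 5830432E09Rik) and Nqo1 (3110003A22Rik, 6030458C11Rik and LOC665298) had r between 0.917 and 0.941. None of the 10 genes was among the 3 closest of another.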

How the data were processed

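RNA of 24 samples (12 conditions, 2 replicates each) was hybridised to 12 Agilent 2-colour arrays on 3 slides, 1 cell type to a slide. The deposited scanner files hold intensities that the authors extracted with Feature Extraction 9.5.3.1, per the file headers, with probe positions on mm8. A deposited table holds the authors' normalized intensities for 38516 probes, and their log2 was taken here. The Cy5 channel was taken as replicate 1 and Cy3 as replicate 2, from the sample titles. The number of channel columns of other samples left out was 0. The labels' protocol names 2 biological replicates to an array and the paper's methods triplicates. Samples are not tied to animals or cultures, so that p-values measure the spread between these channels after normalization within arrays. For arrays, the number of replicates limits the precision.

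Mean signals were background-corrected (normexp, offset 50), control spots were dropped (2825 outlier spot values were set missing, 0 spots were saturated), and log ratios were normalized by loess within arrays and mean intensities by quantiles between arrays (limma 3.58.1, R 4.3.3). For genes with several probes the one with the highest mean over all channels stood for the gene. The 17347 genes whose probe exceeded background in the 2 channels of some condition were tested (134 missing values). A model with 1 mean per condition and 12 residual degrees of freedom was fitted, and p-values were adjusted by Benjamini-Hochberg over all genes (threshold 0.05). Other probes came from the same model over 30727 probes. For a group that did not exceed background, a fold is a bound against, on each array, the higher of the lowest signal well above background and the probe's own signal. The fit was also run on simulated data with independent noise in each channel. Those data lacked deviations shared within a dye or an array, so that run cannot test the calls under such deviations.

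Channels of the same dye deviated together in all 66 pairs of arrays (r = 0.249 to 0.644, median 0.442), so the dye was used as a replicate block in an alternative, and its value is given where it changes a call. Alternatives also covered the offset, normalization, filter, probe choice, authors' table, threshold, array means and single replicates. The members and lists were chosen with earlier results of these data known. All member genes were named with all probes, and of each list the 2 largest rises and falls past the threshold in each macrophage comparison, and for each member the 3 genes with the highest correlation over condition means. Others are marked where named, besides Bach1, Mafk, Sqstm1, Slc3a2, Srxn1, Hmox2, Keap1 and Osgin1, which were also named outside that rule in some comparisons after their values were seen. A few genes that the rule or the lists hold are not reported here by name. Promoter letters came from RefSeq (GRCm38.p6).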

Additional observations from a re-analysis of the deposited data

Results flagged for a closer look

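The KLA change differed between EPM and BMDM, by limma's test of the difference, for Txnrd1 (0.56, EPM minus BMDM, log2 scale) and Txnip (-0.54) at 1 h. At 12 h it differed for Hmox1 (2.15), Gclm (1.80), Gclc (1.36), Slc7a11 (0.87), Txnrd1 (0.86), Sod2 (0.70), Prdx1 (0.63) and Nqo1 (0.56). Every one of the 12 h values was higher in EPM, as was Txnrd1 at 1 h.

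The KLA change also differed between the times. In EPM the 12 h change exceeded the 1 h change for Txnip (1.99), Sod2 (1.97), Hmox1 (1.78), Slc7a11 (1.05), Gclm (0.67) and Prdx1 (0.56) and was below it for Nfe2l2 (-1.07) and Txnrd1 (-1.02). In BMDM it exceeded it for Sod2 (1.42), Txnip (1.19) and Slc7a11 (0.52) and was below it for Txnrd1 (-1.32), Gclc (-1.31), Nfe2l2 (-1.28) and Gclm (-1.04). The time comparison sets arrays of different conditions and different controls against each other, 1 array to a condition, so that array and condition cannot be told apart.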

How the results depend on the processing

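The filter, the offset, the stricter threshold and the centring moved no count of called genes by over 1.5 times, except the 1 h difference between EPM and BMDM, which fell from 2 genes to 1 with quantile normalization over channels, with probes well above background in all channels, with the mean of probes and at a threshold of 0.01. With array means as samples, the counts in limma's fit were 0 at 1 h and 3 at 12 h in EPM, 0 and 4 in BMDM, 0 in B cells at 12 h (1 at an unadjusted p under 0.05), 0 for both differences between EPM and BMDM and 2 for their early controls. This fit has 1 array per treated condition and was not run for differences between times or for control times, and the fit within a cell type was not run between EPM and BMDM. In B cells, the 1 h count was 1 without normalization between arrays, 1 with the replicate block and 8 in the authors' table or with labels exchanged. Of all genes, 1482, 2406, 7161 and 8218 were then called. The 12 h count was 2 with processed signal, 2 with the replicate block and 8 in the authors' table or with labels exchanged. Of all genes, 1179, 1937, 7561 and 8526 were then called. The control difference gave 0 genes in the authors' table and with labels exchanged (434 and 897 of all genes).

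Signs turned in the authors' table for Prdx1 in BMDM at 12 h (0.14), for B cells at 1 h in Nqo1 (2.63), Gclc (0.27), Txnrd1 (1.12) and Txnip (-1.34), at 12 h in Nfe2l2 (0.27), and between B cell controls in Gclc (-0.14), Txnrd1 (-0.09) and Txnip (0.07). With labels exchanged they turned for B cells at 1 h in Nqo1 (2.36), Gclc (0.31), Txnrd1 (1.18) and Txnip (-1.47), at 12 h in Nfe2l2 (0.26), and between controls in Nqo1 (-0.06), Gclc (-0.14), Txnrd1 (-0.06) and Txnip (0.06). The mean of probes turned Nfe2l2 between early controls (0.26) and between EPM controls (-0.17). Apart from the exchange in the authors' table, the cause was not tested.

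Leaving out 1 replicate gave 6 to 6 genes in EPM at 1 h and 7 to 9 at 12 h, 5 to 7 and 8 to 10 in BMDM, 0 to 1 and 1 to 2 in B cells, 1 to 2 and 8 to 8 for EPM against BMDM, 8 to 8 and 7 to 8 for 12 h against 1 h in EPM and BMDM, 7 to 8 between early controls, and 1 to 2, 1 to 3 and 7 to 8 between the controls of EPM, BMDM and B cells. With the replicate block, 128 of 140 gene values kept their call, 12 newly passed (among them Hmox1 for 12 h against 1 h in BMDM, -0.32, and Sod2 between EPM controls, -0.25) and 0 were lost. Slc7a11 in B cells was not well above background, which limits its values there.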
